A study of Mus musculus with 4 samples.

Results

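Neurons move by pulling their nucleus along a cage of microtubules, and 10 genes of this machinery were followed in somatostatin (SST) interneurons with and without *Dnmt1*. The genes were picked by name: *Dcx*, *Dclk1* and *Dclk2* of the doublecortin family, *Pafah1b1* (the gene of LIS1), *Nde1* and *Ndel1* for the dynein regulators, *Cdk5* and its activator *Cdk5r1*, and *Map1b* and *Map2* for classical microtubule-associated proteins. All 10 were found among the 56883 genes of the deposited table, and all 10 were among the 14323 genes tested. The RNA came from tdTomato-positive cells sorted from the basal telencephalon of mouse embryos at E14.5, the stage at which many interneurons travel towards the cortex. Control cells carried *Sst-Cre/tdTomato* (2 libraries) and *Dnmt1* KO cells carried *Sst-Cre/tdTomato/Dnmt1 loxP2* (2 libraries), so that both genotypes hold the Cre driver and the reporter and differ in the floxed *Dnmt1* alleles. Cre is expressed from the *Sst* locus, which confines deletion and red label to cells that have switched on *Sst*. Cells of several embryos were pooled, with 50000 cells per genotype as input, and variation among single embryos is not seen in these libraries.

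In background terms, doublecortin binds and stiffens microtubules ahead of and around the nucleus, and its loss in humans misplaces cortical neurons. LIS1, NDE1 and NDEL1 load and restrain the motor dynein, which tows the nucleus towards the centrosome. CDK5, a kinase that needs a neuronal activator, phosphorylates doublecortin and NDEL1, and MAP1B and MAP2 line the microtubules of growing axons and dendrites.

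Of the 10 genes, 6 rose in *Dnmt1* KO cells, 1 fell and 3 were not called. *Dcx*, *Cdk5r1*, *Dclk2*, *Dclk1*, *Map1b* and *Map2* rose by 1.33-fold or less, and *Nde1* fell to 0.678 of its control level. *Pafah1b1*, *Ndel1* and *Cdk5* did not pass the test. Each gene was tested on log2(normalized count + 1) with limma, and called at an adjusted p below 0.05 over all 14323 genes. For comparison, 8.30% of all genes tested were called higher and 8.99% lower. Both *Dnmt1* KO libraries lay above both control libraries for 7 of the 10 genes (28.4% of all genes tested) and below them for 1 (29.0% of all genes tested). The median log2 fold change of the 10 genes was 0.17, and that of all genes tested was -0.0033. The median absolute log2 fold change of all genes tested was 0.21, larger than the changes of *Map1b* (0.18) and *Map2* (0.17). By mean count, the 6 genes called higher ranked between 8 and 341 of the 14323, with standard errors of 0.033 to 0.054. *Nde1*, at rank 6854, had a standard error of 0.15. The part of high counts in the number of calls was not tested. With 2 libraries per genotype, exact permutation p-values cannot go below 0.333 for any 1 gene, so each adjusted p draws on the variance of all genes through limma. Without letting that variance follow the expression level, limma called 0 genes of all (3339 had an unadjusted p below 0.05). Among the 10 genes 3 then lay higher and 1 lower at that unadjusted level. With edgeR, 2528 genes of all were called, and of the 10 genes 6 were called higher and 1 lower.

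**Figure D1:**
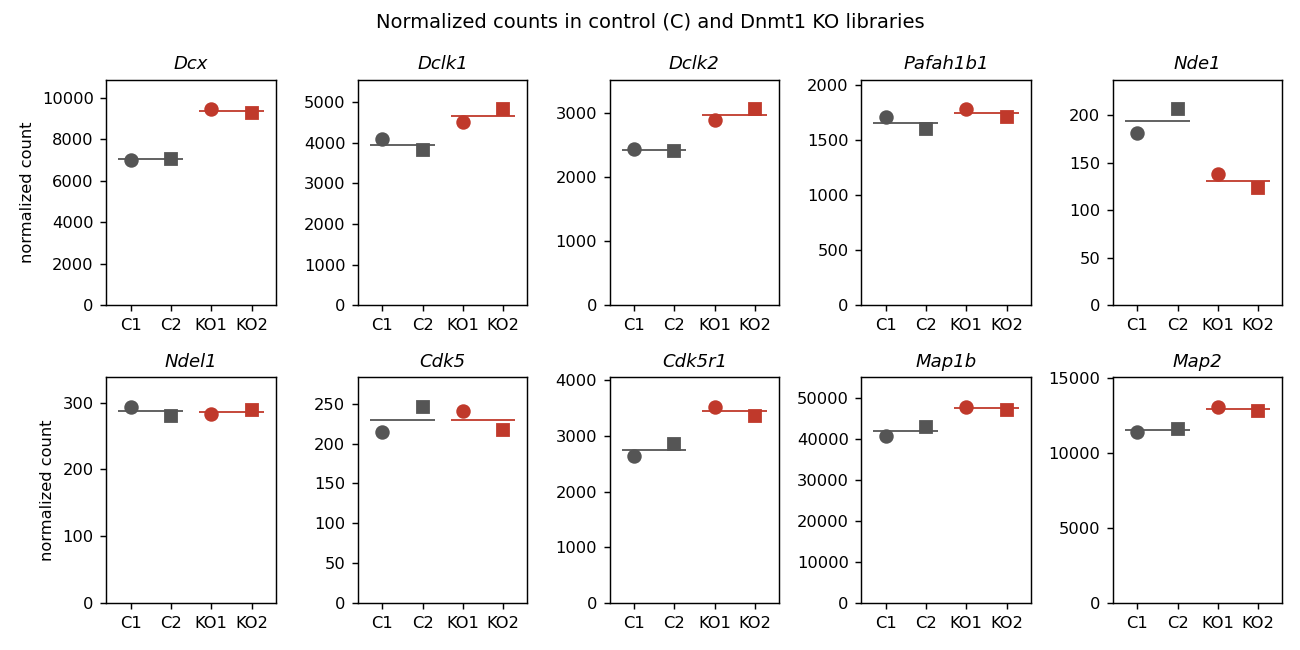
Normalized count (vertical axes, linear and starting at 0) of each gene in the 2 control (C1, C2, grey) and the 2 *Dnmt1* KO libraries (KO1, KO2, red), with horizontal lines at the group means. *Dcx* shows a wide gap beside the spread between libraries, *Nde1* is the gene that lies lower in both *Dnmt1* KO libraries, and the groups overlap for *Ndel1* and *Cdk5*.

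DNMT1 acts on cytosines that precede a guanine (CpG), and the stretch just upstream of the start site is therefore shown for the 3 genes with the largest rise and for the gene that fell. Each sequence holds the 250 bases before the annotated canonical start, read from GRCm39 on the strand of the gene, with CpG in capitals. The DNA methylation of these cells was not analysed here.

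*Dcx*, chrX:142716132-142716381, minus strand: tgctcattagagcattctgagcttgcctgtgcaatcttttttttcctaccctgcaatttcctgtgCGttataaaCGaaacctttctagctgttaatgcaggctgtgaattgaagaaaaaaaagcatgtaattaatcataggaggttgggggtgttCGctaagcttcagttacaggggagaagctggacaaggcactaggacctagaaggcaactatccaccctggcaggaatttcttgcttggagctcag
*Cdk5r1*, chr11:80367599-80367848, plus strand: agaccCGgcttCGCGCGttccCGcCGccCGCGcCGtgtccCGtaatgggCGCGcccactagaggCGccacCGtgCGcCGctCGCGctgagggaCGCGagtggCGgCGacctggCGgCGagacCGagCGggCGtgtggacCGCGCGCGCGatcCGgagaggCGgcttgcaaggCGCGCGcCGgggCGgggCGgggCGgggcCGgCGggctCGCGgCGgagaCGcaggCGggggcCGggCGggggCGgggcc
*Dclk2*, chr3:86828317-86828566, minus strand: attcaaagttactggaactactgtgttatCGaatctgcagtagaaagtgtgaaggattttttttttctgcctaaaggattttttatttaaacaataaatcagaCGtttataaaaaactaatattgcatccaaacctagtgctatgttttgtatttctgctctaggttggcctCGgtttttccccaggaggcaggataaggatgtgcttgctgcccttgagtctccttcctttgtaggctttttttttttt
*Nde1*, chr16:13980672-13980921, plus strand: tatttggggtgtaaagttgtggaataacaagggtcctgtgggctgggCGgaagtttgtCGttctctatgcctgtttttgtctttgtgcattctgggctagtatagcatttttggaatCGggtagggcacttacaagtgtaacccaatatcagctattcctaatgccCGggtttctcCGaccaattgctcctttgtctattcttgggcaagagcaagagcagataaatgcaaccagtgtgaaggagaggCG

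The genes that rose did not share a CpG content. The *Dcx* and *Dclk2* windows each held 3 CpG, a number reached or exceeded by 91.0% of 14284 such windows of tested genes, whose median was 12. The *Cdk5r1* window held 51 CpG, and 0.0490% of all windows held as many. For *Nde1* the window held 6 CpG (reached by 78.1% of all windows). Among the others, there were 2 CpG for *Pafah1b1* and *Map2*, 5 for *Dclk1*, 15 for *Map1b*, 18 for *Cdk5* and 19 for *Ndel1*. CpG reads the same on both strands, and 97.8% of all windows held at least 1. Genes with several start sites have other upstream sequences that are not counted here. The *Map2* and *Ndel1* windows lie wholly inside the annotated gene, and those of *Dcx*, *Dclk1*, *Pafah1b1* and *Map1b* lie partly inside it. Whether CpG content bears on the changes was not tested.

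*Dcx* (chrX:142638838-142716307, GRCm39), the X-linked gene of doublecortin and a common marker of migrating young neurons, rose most among the 10 on the deposited normalization. It ranked behind *Cdk5r1* and *Dclk2* once a curve over transcript length and GC content was subtracted (also behind *Dclk1*, unless the longest transcripts were used). It was counted at 7022 and 7052 in control cells, against 9449 and 9253 in *Dnmt1* KO cells. The control libraries nearly coincided, and both *Dnmt1* KO libraries stood well above them. The means were 7037 ± 21.4 and 9351 ± 139 normalized counts (SD, n = 2 each), and the log2 fold change was 0.41 ± 0.039 (SE, adjusted p = 4.61e-06 in limma). This change exceeded that of 89.2% of all genes tested. *Dcx* was called by DESeq2 and with each library left out in turn, with log2 fold changes from 0.39 to 0.43. With that curve subtracted, as described further on, the change was 0.19 (adjusted p = 0.0240 in limma), or 0.22 with the longest transcript of each gene.

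*Dclk1* (chr3:55149618-55446493) and *Dclk2* (chr3:86690138-86828316) encode kinases that carry the same tandem microtubule-binding domain as doublecortin and partly stand in for it in migrating neurons. *Dclk2* was counted at 2438 and 2405 in control cells, against 2895 and 3067 in *Dnmt1* KO cells. The gene's log2 fold change was 0.30 ± 0.053 (SE, adjusted p = 0.00104 in limma), and the call held with each library left out. *Dclk1* was counted at 4093 and 3815 in control cells, against 4506 and 4826 in *Dnmt1* KO cells. The genotypes did not overlap, although the libraries of each genotype lay further apart than those of *Dcx*. Its log2 fold change was 0.24 ± 0.052 (SE, adjusted p = 0.00473 in limma), and without control replicate 2 the adjusted p from limma was 0.0536 at a log2 fold change of 0.19. Summed, the doublecortin family came to 13553 and 13273 normalized counts in control cells and 16850.1 and 17146 in *Dnmt1* KO cells.

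Within a library, the *Dclk1* to *Dcx* ratio does not depend on how libraries are scaled. On the log2 scale it was -0.78 and -0.89 in the control and -1.07 and -0.94 in the *Dnmt1* KO libraries, a difference of -0.17 (standard error from limma 0.065, exact permutation p = 0.333, the smallest possible). For *Dclk2* to *Dcx* the ratio was -1.53 and -1.55 in the control and -1.71 and -1.59 in the *Dnmt1* KO libraries (difference -0.11, standard error 0.066, exact permutation p = 0.333). Neither pair of genotypes overlapped, and the ratio of both kinase genes to *Dcx* was thus lower in *Dnmt1* KO cells by values. Both differences changed sign, to 0.079 and 0.13, when the dependence of each library on transcript length and GC content was taken out (described further on). With the longest transcript of each gene in that step, the *Dclk1* to *Dcx* difference stayed negative at -0.039. The *Dclk2* to *Dcx* difference was then 0.087.

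The LIS1 group did not move as 1 block. *Pafah1b1* (chr11:74564774-74615723), whose product LIS1 holds dynein on the microtubule and is haploinsufficient in human lissencephaly, was counted at 1710.1 and 1598 in control cells, against 1782 and 1712 in *Dnmt1* KO cells. The lower *Dnmt1* KO library lay barely above the higher control library. The log2 fold change was 0.080 (95% interval -0.049 to 0.21, adjusted p = 0.416 in limma), which leaves room for anything from 0.966-fold to 1.16-fold. *Ndel1* (chr11:68698978-68762786), the partner of LIS1 that is prominent in postmitotic neurons, was counted at 294 and 279.7 in control cells, against 282 and 289.5 in *Dnmt1* KO cells. Both *Dnmt1* KO libraries lay between the control libraries, with a log2 fold change of -0.0037 and a 95% interval of -0.23 to 0.23 (adjusted p = 0.988 in limma).

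*Nde1* (chr16:13980922-14010792), the paralog of *Ndel1* that serves spindle and nuclear movement in dividing progenitors, was the gene that fell. It was counted at 181 and 206 in control cells, against 138 and 123 in *Dnmt1* KO cells, which rest on 202, 202, 140 and 113 recovered reads in the same order. Both *Dnmt1* KO libraries lay below both control libraries. The log2 fold change was -0.56 ± 0.15 (SE, adjusted p = 0.0150 in limma), and counting error alone gives a standard error of 0.12 at these reads. The call ended without control replicate 2 (adjusted p = 0.14) and without *Dnmt1* KO replicate 2 (adjusted p = 0.0581), and DESeq2 did not make it (adjusted p = 0.108, unadjusted p = 0.0149). Within a library, the *Nde1* to *Ndel1* log2 ratio was -0.70 and -0.44 in the control and -1.03 and -1.22 in the *Dnmt1* KO libraries, a difference of -0.56 (standard error 0.18, exact permutation p = 0.333).

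The fall of *Nde1* ran alongside that of other genes of dividing cells. Of 14 genes of cycling cells, 13 were called lower, including *Mki67*, *Top2a* and *Aurkb*, and their summed normalized counts ranged from 7874 to 8124 in the control and from 5672 to 5691 in the *Dnmt1* KO libraries. Of 10 genes of radial glia and progenitors, 7 were called lower (*Nes* and *Vim* by a log2 fold change of -1.03 each) and *Sox2* was called higher, with sums from 11793 to 11799.7 and from 7165 to 7397. None of these 24 genes was at 0 in either genotype. The part of these cells in the *Nde1* result was not tested. In bulk RNA, fewer cells of a type and less RNA per cell cannot be told apart.

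*Cdk5* (chr5:24612595-24628594), the kinase, and *Cdk5r1* (chr11:80367849-80372010), which encodes the neuronal activator that brings it to life, behaved differently in the test. *Cdk5r1*, an intronless gene in its annotated coding transcript, was counted at 2646 and 2849 in control cells, against 3525 and 3366 in *Dnmt1* KO cells. The genotypes were well separated. Its log2 fold change was 0.33 ± 0.054 (SE, adjusted p = 0.000598 in limma), and the call held with each library left out. *Cdk5* was counted at 214 and 246 in control cells, against 241 and 217 in *Dnmt1* KO cells. Here too both *Dnmt1* KO libraries lay between the control libraries, with a log2 fold change of -0.0040 and a 95% interval of -0.27 to 0.26 (adjusted p = 0.989 in limma). The *Cdk5r1* to *Cdk5* log2 ratio within a library was 3.62 and 3.53 in the control and 3.87 and 3.95 in the *Dnmt1* KO libraries, a difference of 0.33 (standard error 0.14, exact permutation p = 0.333).

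*Map1b* (chr13:99557954-99653137), a microtubule-associated protein of growing axons, was the most abundant of the 10 and took 0.545% to 0.627% of all reads. It was counted at 40886 and 43074 in control cells, against 47899 and 47238 in *Dnmt1* KO cells. *Map2* (chr1:66214327-66481746), which marks cell bodies and dendrites, was counted at 11419 and 11623 in control cells, against 13072 and 12812 in *Dnmt1* KO cells. The genotypes did not overlap for either gene, and the rises were small. The log2 fold change was 0.18 for *Map1b* (standard error 0.033, adjusted p = 0.00134 in limma). For *Map2* it was 0.17 (standard error 0.037, adjusted p = 0.00524 in limma), and without *Dnmt1* KO replicate 1 its adjusted p was 0.0527. Between these genes the log2 ratio within a library was 1.84 and 1.89 in the control and 1.87 and 1.88 in the *Dnmt1* KO libraries, with overlapping groups and a difference of 0.013 (standard error 0.049).

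Transcript length moved with genotype in these libraries, and several of the 10 transcripts are long. From control to *Dnmt1* KO libraries, log2 ratios rose by 0.0537 to 0.0560 with each doubling of transcript length, against at most 0.00172 between libraries of 1 genotype. The annotated transcripts of *Dcx* (9074 bases), *Map2* (9658 bases) and *Map1b* (11893 bases) were longer than or as long as those of 95.2%, 96.3% and 98.6% of tested genes. With a smooth curve over transcript length and GC content subtracted from every library, *Dcx* kept a log2 fold change of 0.19 (adjusted p = 0.0240 in limma). *Map1b* then had 0.11 (adjusted p = 0.149 in limma) and *Map2* 0.062 (adjusted p = 0.401 in limma), and neither was called. *Cdk5r1*, *Dclk2* and *Dclk1* had 0.39, 0.32 and 0.27, all called, and *Nde1* had -0.53 (adjusted p = 0.0293 in limma). As the length slope lay between the genotypes, the curve also removes any genotype difference that follows transcript length. The paper reports longer transcripts among the genes it finds regulated by DNMT1 in SST interneurons.

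In the fit with the curve subtracted, 4 of the 10 genes were called higher (5.26% of all genes) and 1 lower (6.85% of all genes). The fit takes for each gene the transcript with the longest coding sequence, which is 3977 bases for *Dclk1* and 2375 bases for *Pafah1b1*, while their longest annotated transcripts reach 9018 and 8570 bases. With the longest transcripts, an alternative added after the data were seen, *Dclk1* was no longer called (log2 fold change 0.18, adjusted p = 0.0871 in limma) and *Pafah1b1* went to -0.10 (adjusted p = 0.342 in limma). *Dcx*, *Dclk2*, *Cdk5r1* and *Nde1* stayed called in both versions. DESeq2 on recovered reads called the same 6 genes higher and 0 of the 10 lower. At an unadjusted p below 0.05 it had 1 lower, where edgeR and limma called 1. Of the 12656 genes to which DESeq2 gave an adjusted p, 5.06% were called higher and 5.43% lower.

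**Figure D2:**
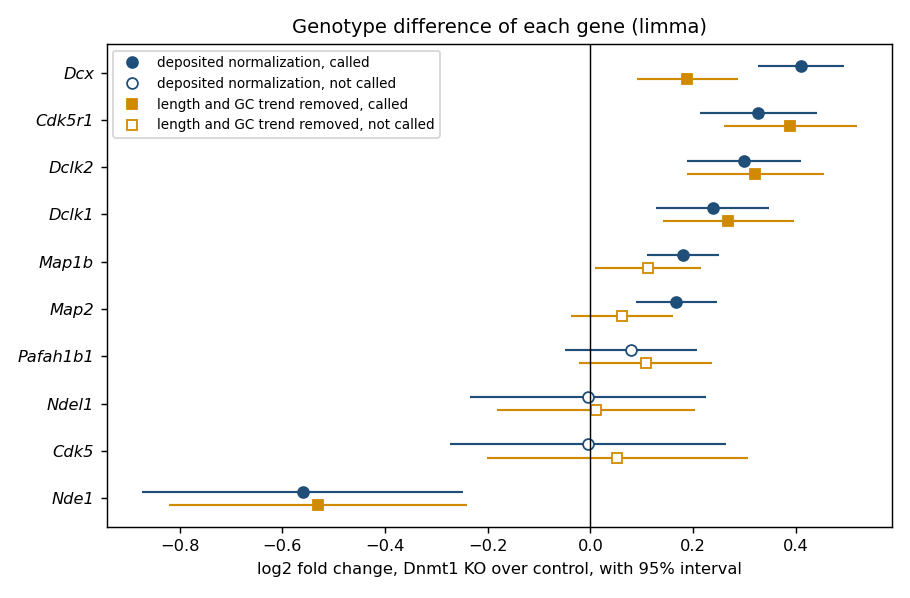
Log2 fold change of *Dnmt1* KO over control (horizontal axis) for each gene, with 95% intervals from limma, on the deposited normalization (blue circles) and with that curve over transcript length and GC content subtracted (orange squares). Filled symbols are called at an adjusted p below 0.05. *Dcx* moves from 0.41 to 0.19 and *Map1b* and *Map2* lose their calls, while *Cdk5r1*, *Dclk2*, *Dclk1* and *Nde1* move by less.

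Levels of different genes were compared as normalized counts per kb of the same transcripts. *Map1b* stood highest, at 3529.8 ± 130.1 in control and 3999.7 ± 39.3 in *Dnmt1* KO cells (SD, n = 2 each, normalized counts per kb). *Map2* followed with 1193 ± 14.9 and 1340.0 ± 19.1, then *Dclk1* with 994 ± 49.4 and 1173 ± 56.9, *Dcx* with 776 ± 2.36 and 1031 ± 15.3, *Cdk5r1* with 660.2 ± 34.5 and 828 ± 27.0, and *Pafah1b1* with 696 ± 33.5 and 736 ± 20.9. Over the 4 libraries of both genotypes, the ranges of each neighbouring pair from *Map2* to *Pafah1b1* overlapped. Within each library, however, the order *Map2*, *Dclk1*, *Dcx*, *Cdk5r1* was kept. *Pafah1b1* lay above *Cdk5r1* in control replicate 1 and below it in the other libraries.

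Lower levels per kb were found for *Dclk2* (321 ± 3.04 and 395 ± 16.1), *Ndel1* (112 ± 3.81 and 112 ± 2.06), *Cdk5* (107 ± 10.6 and 107 ± 7.65) and *Nde1* (77.5 ± 7.21 and 52.4 ± 4.14). The ranges of *Ndel1* and *Cdk5* overlapped, and *Nde1* lay below both in every library. *Cdk5* and the *Nde1* and *Ndel1* pair thus lay below the activator *Cdk5r1* and below *Pafah1b1* in reads per length. The order rests on the transcript chosen, as with the longest transcript of each gene *Dclk1* took rank 5 and *Pafah1b1* rank 7, and 3 of the 10 genes (*Map1b*, *Map2* and *Nde1*) kept their rank.

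**Figure D3:**
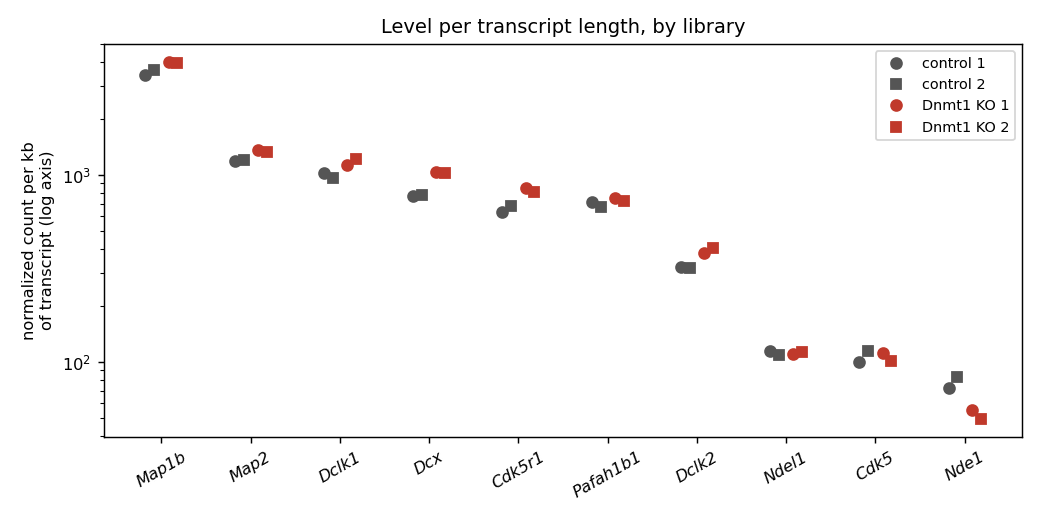
Normalized count per kb of annotated transcript (vertical axis, log scale) of the 10 genes in the control (grey) and *Dnmt1* KO libraries (red), ordered by the mean over the 4 libraries. *Map1b* lies between 3438 and 4027, and *Nde1* between 49.4 and 82.6.

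Dynein is the motor that this machinery serves. Among 21 genes of dynein and its activator dynactin, 20 were tested, 1 was called higher, 2 lower and 17 were not called, with a median log2 fold change of 0.039. Of all genes tested, 8.30% were called higher and 8.99% lower. These shares stand beside the counts of this and the next 3 lists, none of which was tested as a set. The heavy chain *Dync1h1*, the motor subunit of cytoplasmic dynein, rose from 12673 ± 57.5 to 16241 ± 484 normalized counts (SD, n = 2 each), with a change of 0.36 ± 0.037 on the log2 scale (SE, adjusted p = 8.87e-06 in limma) that was 0.30 with the length and GC curve subtracted. The light chain *Dynll1* had a log2 fold change of -0.23 (adjusted p = 0.0481 in limma), which was -0.025 with that curve subtracted and was then not called. *Dctn1*, the largest dynactin subunit, differed by 0.020 and *Dync1i2*, an intermediate chain, by 0.048, and neither was called. Without control replicate 1, the count of called genes in this list was 1.

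Of 17 other genes of the LIS1 complex and CDK5 partners, 2 were called higher, 1 lower and 14 not, with a median log2 fold change of 0.077. *Pafah1b2*, a catalytic subunit of the acetylhydrolase that LIS1 also belongs to, rose from 1599 ± 27.3 to 1915 ± 79.0 normalized counts (SD, n = 2 each, log2 fold change 0.26, adjusted p = 0.00633 in limma). *Nudcd3*, a chaperone that stabilizes dynein, had a log2 fold change of 0.31 (adjusted p = 0.00503 in limma), while *Nudc*, a chaperone that stabilizes LIS1, fell by 0.27 on the log2 scale (adjusted p = 0.0139 in limma). *Ywhae*, whose product shields phosphorylated NDEL1, and *Ptk2*, a CDK5 substrate, differed by -0.012 and 0.0081 and were not called. With the length and GC curve subtracted, *Nudcd3* was the gene of this list still called.

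Of 32 other microtubule-associated genes, 8 were called higher, 3 lower and 21 not, with a median log2 fold change of 0.074. *Mapt*, the gene of tau, rose from 5502 ± 146 to 6814 ± 169 normalized counts (SD, n = 2 each), with a change of 0.31 ± 0.044 on the log2 scale (SE, adjusted p = 0.000162 in limma). *Mark1*, a kinase that releases such proteins from microtubules, had a log2 fold change of 0.34, *Map9* one of 0.30 and *Camsap2*, which caps minus ends, one of 0.27, with limma's adjusted p at most 0.00830. *Stmn1*, which takes microtubules apart, fell from 16517 ± 856 to 14148 ± 390 (SD, n = 2 each, log2 fold change -0.22, adjusted p = 0.00151 in limma), and *Map6*, which stabilizes them, had a log2 fold change of -0.25 (adjusted p = 0.0138 in limma). *Dpysl3* and *Map7d1* differed by 0.076 and 0.051 and were not called. With the length and GC curve subtracted, 5 of the 32 were called higher and 0 lower. The 5 included *Mapt* and *Mark1*, and also *Stmn3*, a stathmin that was not called on the deposited normalization (named after its values were seen). *Stmn1* was then at -0.047, and *Map9*, *Camsap2* and *Map6* were not called, with adjusted p of 0.101, 0.0738 and 0.0558 in limma. The count of called genes was 7 without control replicate 1 and 6 without control replicate 2.

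The nucleus is also gripped and pushed from the actin side. Of 23 genes of the nuclear envelope and of actomyosin, 3 were called higher, 7 lower and 13 not, with a median log2 fold change of -0.13. *Rnd2*, a small GTP-binding protein needed for radial migration of cortical neurons, fell from 323 ± 9.71 to 187 ± 1.76 normalized counts (SD, n = 2 each, log2 fold change -0.79, standard error 0.11, adjusted p = 0.000214 in limma). *Flna*, an actin cross-linker, had a log2 fold change of -0.48, *Rnd3* one of -0.38 and *Myh9*, a nonmuscle myosin, one of -0.38, with limma's adjusted p at most 0.00527. *Rock1*, *Syne1* and *Rock2* were called higher, with log2 fold changes of 0.45, 0.36 and 0.24, and none of these 3 was called with the length and GC curve subtracted. In that fit *Rnd2*, *Flna* and *Rnd3* were still called lower, and *Myh9* was not (log2 fold change -0.37, adjusted p = 0.0614 in limma). *Myh10*, the main nonmuscle myosin by counts, and *Syne2*, a nesprin that tethers the nucleus, differed by -0.048 and 0.044 and were not called. The count of called genes in this list was 5 without control replicate 2.

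The sorted cells carried the markers of their label. Of 15 genes of SST interneurons born in the medial ganglionic eminence, 13 were called higher in *Dnmt1* KO cells, and *Dlx6* and *Nkx2-1* were not called. Their summed normalized counts ranged from 27046 to 27134 in the control and from 41214 to 41766 in the *Dnmt1* KO libraries. The log2 fold change was 0.48 for *Sst* and 0.63 for *Gad1*, beside 0.41 for *Dcx*, and these differences were not tested. Markers of other cells went the other way. Of 8 genes of pallial excitatory neurons, 6 were called lower, with sums from 2660.4 to 2696 in the control and from 1377 to 1510.1 in the *Dnmt1* KO libraries. Of 10 blood genes, 8 were tested and all 8 were called lower, with sums from 2433 to 2610.3 and from 587 to 592. Of 12 genes of endothelial, mural, fibroblast and microglial cells, 10 were tested and 9 were called lower, with sums from 706 to 766 and from 293 to 321. *Hbb-bh1*, an embryonic globin, and *P2ry12*, a microglial receptor, averaged below 10 normalized counts and were not tested. Both were at 0 in *Dnmt1* KO replicate 1 and at 1.09 in *Dnmt1* KO replicate 2. In control replicates 1 and 2, *Hbb-bh1* was at 3.58 and 3.06 and *P2ry12* at 4.47 and 7.15. The part of the makeup of the sorted cells in the rises of *Dcx*, the *Dclk* genes, *Cdk5r1*, *Map1b* and *Map2* was not tested.

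**Figure D4:**
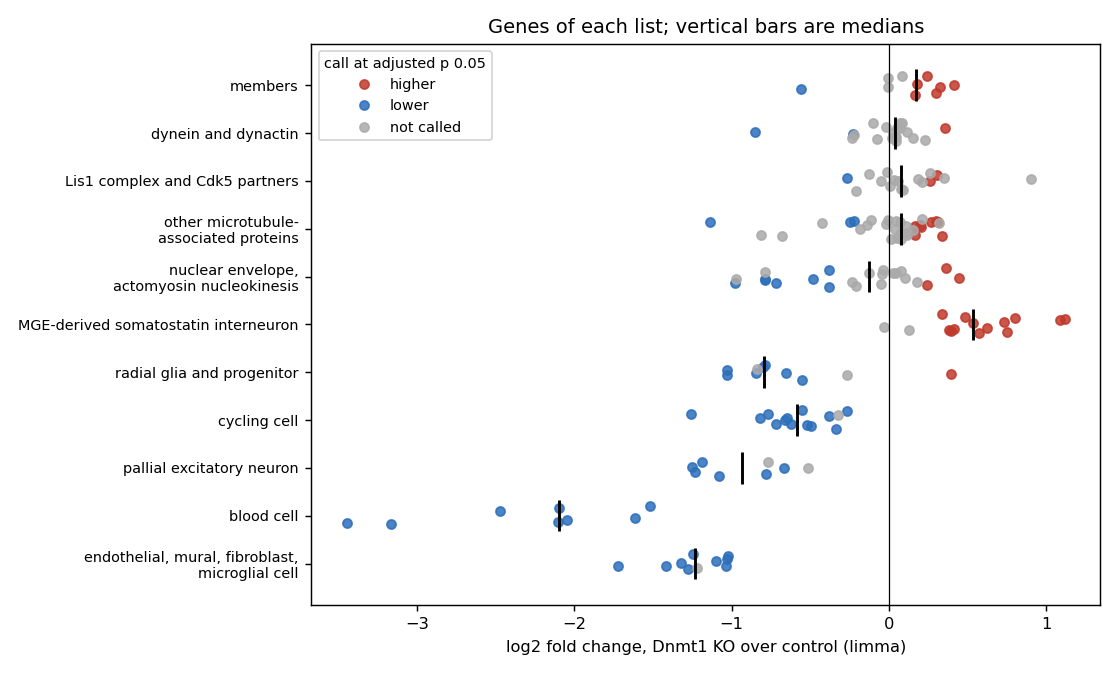
Log2 fold change of *Dnmt1* KO over control (horizontal axis, limma) for the 10 genes (top row, members), 4 lists of partner genes and 6 lists of cell type markers. Each point is a gene, red if called higher, blue if called lower and grey if not called, and black bars are list medians. The medians run from 0.53 for interneuron genes to -2.10 for blood genes, and the partner lists lie between -0.13 and 0.077.

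The pattern of *Dcx* over the 4 libraries was matched most closely by *Plxna2*, *St8sia4* and *Rb1cc1*. The measure was the Euclidean distance between log2 values centred on each gene's mean, over 4 libraries and 3123 genes averaging 500 normalized counts or more, and it came to 0.022, 0.027 and 0.029. Their log2 fold changes were 0.41, 0.43 and 0.39, close to that of *Dcx* by construction, as the genes were picked by this distance.

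The targeted gene, *Dnmt1*, was counted at 2238 to 2341 in the control and at 2164 to 2210.3 in the *Dnmt1* KO libraries (log2 fold change -0.066, adjusted p = 0.461 in limma). This number sums reads over all exons, and loss of the floxed part alone cannot be read from it. The paper reports reduced DNMT1 immunostaining in tdTomato-positive cells of E14.5 *Dnmt1* KO embryos. It also reports lower *Dnmt1* counts in *Dnmt1* KO cells sorted from the E14.5 cortex, in libraries other than these. Recovered reads per library ranged from 6970247 to 8376711. *Nde1* shares 131 of its 5521 exonic bases with *Marf1* on the other strand, and *Marf1* had a log2 fold change of 0.23 (adjusted p = 0.0531 in limma). *Dclk1* shares exonic bases with antisense noncoding genes, up to 1367 of 21795. The library kit kept strand, but whether the counting used it is not given in the sources used here, and the values of *Nde1* and *Dclk1* are uncertain to that extent.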

How the data were processed

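RNA of sorted tdTomato-positive cells was sequenced in 4 libraries, 2 per genotype, grouped by the sample labels. The authors' notes name Trim Galore for trimming, STAR for alignment to GRCm39, Salmon for quantification and DESeq2 (1.32.0), and the deposited signal is the count of each gene divided by a size factor. All 89965 values above 0 were whole multiples of 1 unit per library, within 0.0001 of a read, which gave the recovered reads.

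The 14323 genes averaging 10 or more normalized counts entered limma 3.58.1 (R 4.3.3) on a log2 scale after addition of 1, with genotype as the single term, a prior variance that follows expression and Benjamini-Hochberg adjustment. Alternatives used edgeR 4.0.16, DESeq2 1.42.0 and limma-voom on recovered reads, among others given at the end. Ratios were compared by two-sided exact permutation tests (scipy 1.17.1). Positions, lengths and GC content came from the GENCODE annotation of GRCm39, which held 14285 of the genes tested. The curve over length and GC content was a natural spline with 5 degrees of freedom for each. The limma, edgeR and DESeq2 fits were tested on simulated counts without a length or GC trend. The length and GC curve and the ratios were not tested in this way. Intervals are 95%, and each SD rests on 2 libraries.

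The 10 genes, the partner and marker lists and the tests were chosen with earlier results of these data known. Named were the 10 genes, *Dnmt1*, *Sst* and *Gad1*, up to 4 called genes in each direction per partner list (100 or more normalized counts on average, largest change), up to 2 not called with the highest counts, up to 3 genes per marker list and those not called or at 0, genes overlapping the 10, and the 3 genes nearest *Dcx*. RefSeq promoter sequences, on another build, held 8 of the 10 genes and were not used. Values of 1 marker gene are not reported here.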

Additional observations from a re-analysis of the deposited data

How the results depend on the processing

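The log2 fold changes of *Dcx*, *Dclk1*, *Dclk2*, *Cdk5r1*, *Map1b*, *Map2* and *Nde1* kept their direction under all 18 alternatives. *Dcx* lay between 0.19 and 0.43, *Cdk5r1* between 0.26 and 0.39, *Dclk2* between 0.25 and 0.34 and *Nde1* between -0.66 and -0.47. With quantile normalization *Map1b* was no longer called (log2 fold change 0.16). Beside 2476 genes called by limma, DESeq2 called 1327 of the 12656 it tested, and limma with 1 library left out called 1525 (without control replicate 2; 1648 without control replicate 1) to 2205. In those fits a library left alone in its genotype is assumed to vary like the others. DESeq2 called 0 of the 10 lower. With the longest transcripts in the length and GC curve 3 were called higher and 1 lower, beside 1725 genes called of all. Without a variance trend limma called 0 genes, 0 of the 10 higher, 0 lower, and 0 in each partner list, and the cause was not tested.

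Of the partner lists, dynein and dynactin (3 called) had 1 called with DESeq2 and 1 to 2 with a library left out. The LIS1 and CDK5 partners (3 called) had 1 with the length and GC curve subtracted, with either transcript and with the replicate block. The microtubule-associated genes (11 called) had 5 with that curve, with either transcript, and 6 to 8 with a library left out. The nuclear envelope and actomyosin genes (10 called) had 6 with DESeq2, 4 with that curve, with either transcript, and 5 to 10 with a library left out.

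Values near 0 changed sign. *Ndel1* had a log2 fold change of 0.021 with quantile normalization, 0.010 with the length and GC curve, blocked or not, and -0.038 to 0.031 with a library left out. *Cdk5* had 0.020 with quantile normalization, 0.00068 with edgeR, 0.0074 with limma-voom, 0.053 with the curve, blocked or not, 0.060 with the longest transcripts, and -0.10 to 0.097 with a library left out. *Pafah1b1* was at -0.10 with the longest transcripts. The *Dclk1* to *Dcx* ratio differed by 0.079 and the *Dclk2* to *Dcx* ratio by 0.13 with the curve, blocked or not. With the longest transcripts the *Dclk2* to *Dcx* ratio differed by 0.087, while the *Dclk1* to *Dcx* ratio kept its sign at -0.039. The *Map1b* to *Map2* ratio differed by -0.012 to 0.038 with a library left out.

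Libraries of the same number did not deviate together (r = 0.016 across 8418 genes, which are not independent), so the numbers were not taken to pair the libraries. With the replicate number as a block, 2957 genes were called, 6 of the 10 higher and 1 lower, and with the curve as well 2691, 4 higher and 1 lower.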
